A study of Mus musculus with 6 samples.

Results

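H3K4me3 and ASH2L were mapped at the genes that set, copy and remove DNA methylation in mouse embryonic stem cells. The group comprised 9 genes chosen by name, Dnmt1, Uhrf1, Dnmt3a, Dnmt3b, Dnmt3c, Dnmt3l, Tet1, Tet2 and Tet3, out of 21951 protein-coding genes of the GENCODE vM21 annotation. Every peak that overlapped the body of one of these genes or the 5000 bp upstream of it was taken. This gave 34 of 59927 H3K4me3 peaks and 2 of 2464 ASH2L peaks. Positions are those of mouse mm10, the assembly also called GRCm38.

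The maps were made by CUT&RUN, in which an antibody brings a nuclease to its target and the DNA released by the cut is sequenced. E14, a mouse embryonic stem cell line, was grown with serum and LIF, a cytokine that keeps such cells undifferentiated. The 6 samples formed 3 groups of 2, namely HA-ASH2L E14 cells profiled for H3K4me3, HA-ASH2L E14 cells profiled for the HA tag and parental wild-type E14 cells profiled for the HA tag. All groups received doxycycline for 48 h. According to the study's methods, the HA-ASH2L cells carry a doxycycline-inducible ASH2L transgene in a PiggyBac vector together with rtTA, and they were grown from picked colonies. The sample labels call their genotype HA-Ash2L knock-in and, in another field, call HA-Ash2L a transgene. The parental HA signal was not analysed here, and no H3K4me3 map of parental or uninduced cells was used, so that the effect of the transgene on H3K4me3 cannot be told apart from the state of the line.

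One peak list per target had been made from the merged duplicates. There is therefore no value per sample and no spread between cultures, and no difference below was tested. For each peak the lists give the number of tags (mapped reads as the peak caller counts them), the fold enrichment at the summit over the surrounding sequence of the same library, and a p-value score, which is 50 at the threshold of the peak caller. The H3K4me3 list rests on 27328071 tags and the ASH2L list on 25677963. The median H3K4me3 peak had a length of 1453 bp, 113 tags and a fold enrichment of 6.46, and the median ASH2L peak had a length of 717 bp, 32 tags and a fold enrichment of 5.37. Intervals of tags are exact Poisson 95% intervals and those of shares are 95% Wilson intervals, and both cover counting error only. Tags are not compared between the lists. In such a population, a mark in some of the cells and a lower level in all of them cannot be told apart.

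The labelled cell type was checked against its markers. Of 8 pluripotency genes, 3 (Klf4, Esrrb and Zfp42) had an H3K4me3 peak at a promoter, and Utf1 had a peak only upstream. Pou5f1, Sox2 and Nanog, which define pluripotent cells, and Tdgf1 had no H3K4me3 peak in the list used here, neither over the gene nor in the 5000 bp upstream. Here and below, no peak means only that the list as used here holds none. Of 7 fibroblast genes, 3 (Col1a1, Col1a2 and Thy1) had a promoter peak, as did 2 of 5 genes of differentiated tissues (Gfap and Cd3e). The share over all protein-coding genes was 68.4%, above that of each of these marker lists. A peak does not measure expression, and the lists alone do not settle the label.

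DNA methylation in mammals sits mostly on CpG dinucleotides. DNMT1 copies it onto the new strand after replication, and UHRF1 recognizes the hemimethylated DNA and recruits DNMT1. DNMT3A and DNMT3B methylate DNA de novo, DNMT3L has no catalytic activity and stimulates them, and DNMT3C is a rodent enzyme that methylates young retrotransposons in male germ cells. TET1, TET2 and TET3 are dioxygenases that oxidize 5-methylcytosine and so start its removal. H3K4me3 marks the start sites of many genes and is found mostly on CpG-rich DNA without methylation, and the ADD domain of the DNMT3 proteins binds the H3 tail when lysine 4 is unmethylated. ASH2L is a core subunit of the MLL/SET1 complexes, which methylate H3K4.

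All 9 genes had an H3K4me3 peak over the body or the 5000 bp upstream, where 76.2% of protein-coding genes had one. At 7 of the 9, a peak lay at a promoter, defined as 1000 bp upstream to 100 bp downstream of an annotated start site. Over all protein-coding genes this share was 68.4% (15016 of 21951, interval 67.8% to 69%). The count at the 9 genes was thus close to the background under this rule, and Tet1 and Dnmt3c had no promoter peak. With the peak midpoint in the window it was 3, against a share of 37.2%. Among peaks at or above the median fold enrichment it was 1, against 36.4%, and at or above the median p-value score 7, against 61.6%. The 34 peaks comprised 13 at promoters, 19 elsewhere in the gene body, which are called intragenic, and 2 that lay only upstream. Intragenic peaks were found in 7 of the 9 genes, all but Uhrf1 and Dnmt3l, against 39.7% of protein-coding genes. The genes themselves were long, with a median body of 52.68 kb against 17.403 kb for all protein-coding genes. The part of gene length in the number of intragenic peaks was not tested.

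**Figure D1:**
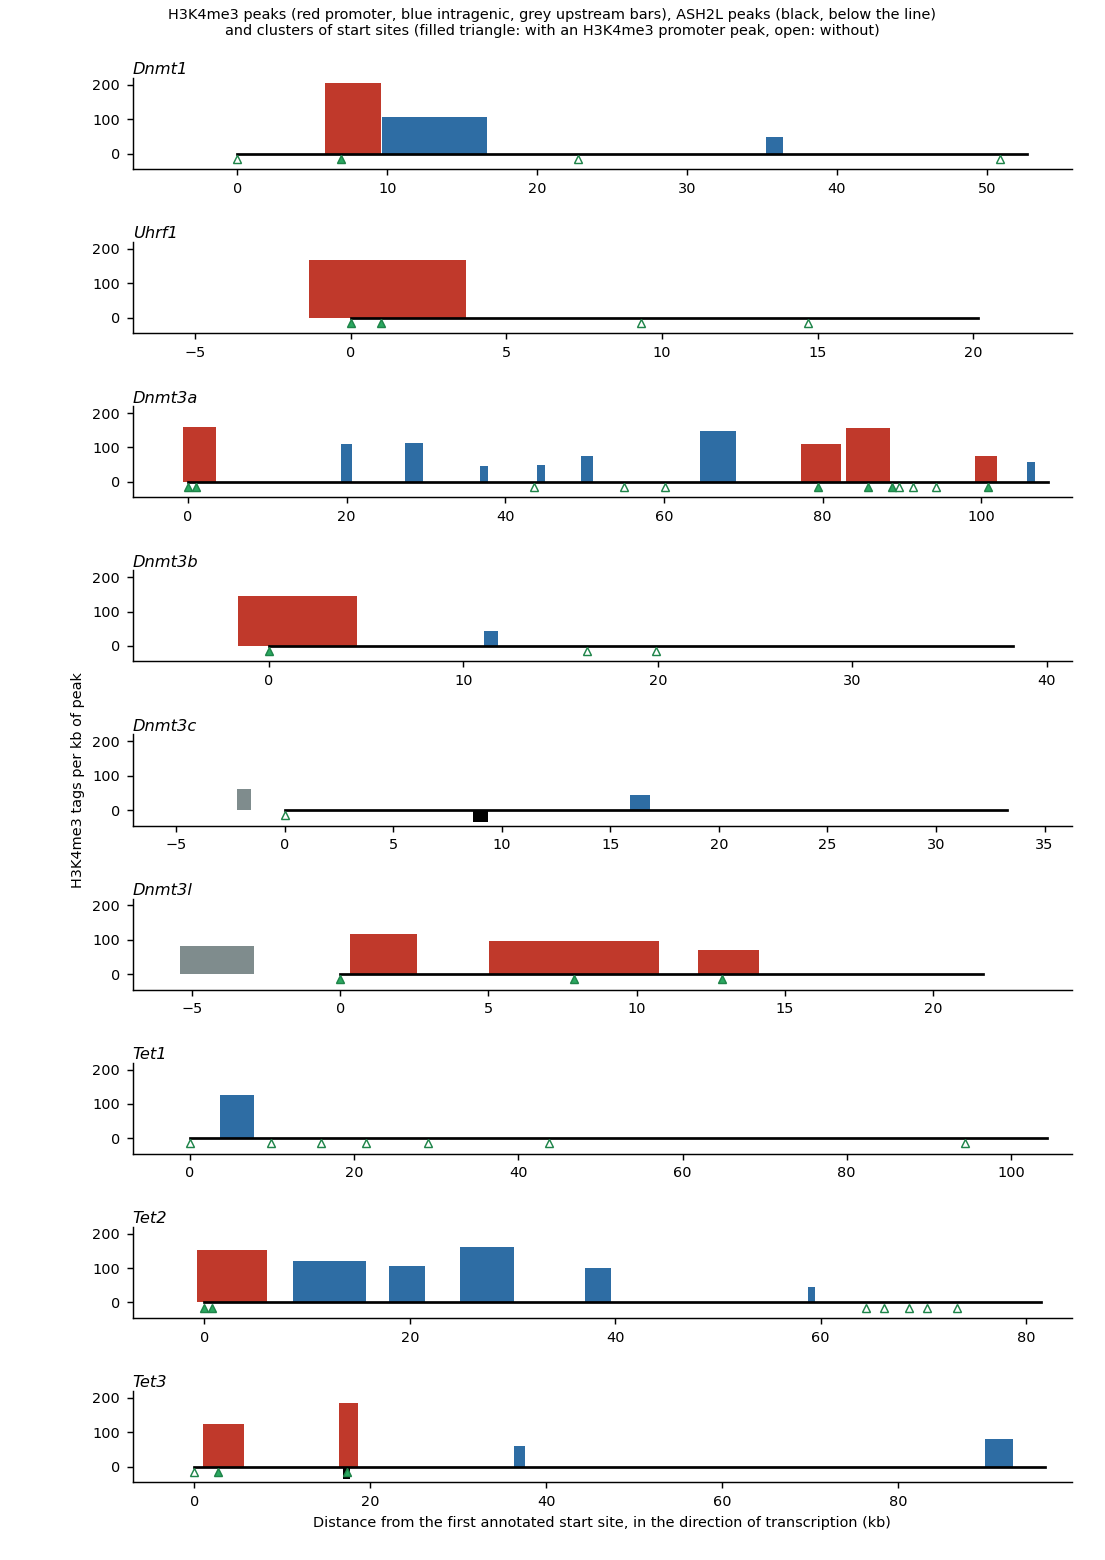
H3K4me3 and ASH2L peaks along the 9 genes. The x axis gives the distance from the first annotated start site in kb and the y axis the H3K4me3 tags per kb of each peak; red bars are promoter peaks, blue bars intragenic peaks and grey bars upstream peaks, black boxes below the line are ASH2L peaks (their height has no scale), and filled or open triangles are clusters of start sites with or without an H3K4me3 promoter peak. Dnmt3a carries 11 H3K4me3 peaks and Tet2 carries 6, whereas Uhrf1 and Tet1 carry 1 each, and only Dnmt3c and Tet3 carry an ASH2L peak.

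Several of the peaks were wide. Among the 34, 9 had a length of 5000 bp or more, compared with 3.53% of all H3K4me3 peaks. These wide peaks lay in 6 of the 9 genes (Dnmt1, Uhrf1, Dnmt3a, Dnmt3b, Dnmt3l and Tet2), and 10.6% of all protein-coding genes had one. The promoter peaks had a median length of 4677 bp (2058 to 6815 bp) and a median of 577 tags (146 to 1040). Their median fold enrichment was 4.08 (2.84 to 7.69), below the list median of 6.46, and only the Tet3 peak at 7.69 exceeded that median. The intragenic peaks were shorter, with a median of 1475 bp (695 to 7129 bp) and 157 tags (31 to 867), and their median fold enrichment was 4.80 (2.49 to 8.06). In all, 8 of the 34 peaks reached the list median in fold enrichment.

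In the whole list, the longest peaks had the lowest median fold enrichment. It was 6.46 for H3K4me3 peaks under 1000 bp, 7.22 for those of 1000 to 2000 bp, 6.62 for those of 2000 to 3000 bp, 5.30 for those of 3000 to 5000 bp and 3.99 for the 2114 peaks of 5000 bp or more. The 9 wide peaks of the methylation genes, with a median of 3.78 (2.63 to 5.20), were near the value of their length class. The peak caller took the background from up to 10000 bp around each peak in the same library, and the part of this setting in the low values was not tested.

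**Figure D2:**
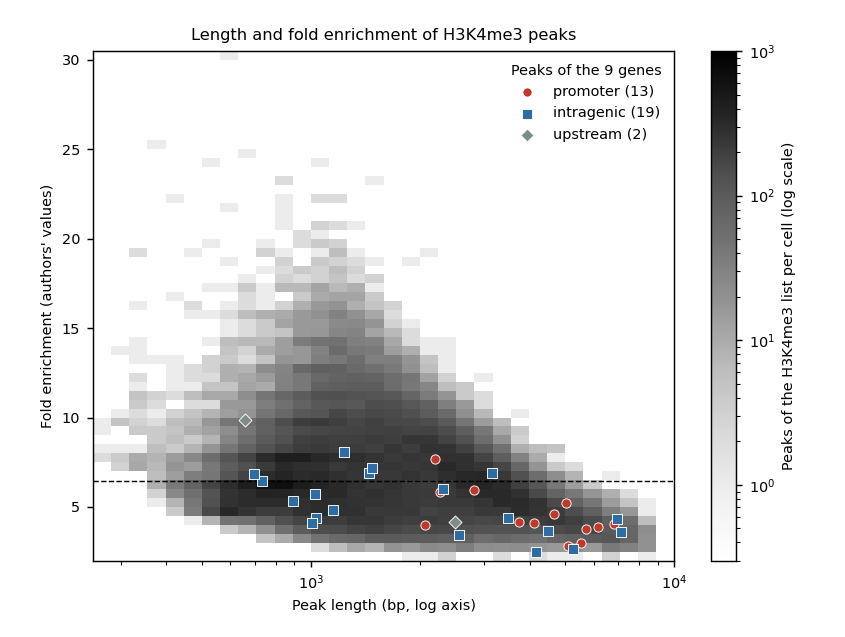
Length (bp, log axis) and fold enrichment of every H3K4me3 peak, as grey cells shaded by the number of peaks on a log scale, with the 34 peaks of the 9 genes as coloured points. The dashed line is the median fold enrichment of the list (6.46), and 8 of the 34 points lie on or above it, none of them longer than 3148 bp.

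Summed over the promoter peaks of a gene, tags ranked in the upper part of all genes with a promoter peak at each of the 7 genes. Their median was 957 tags, against 498 over the 15016 genes, and the median summed length was 6815 bp against 3166.5 bp. Dnmt3a had the most tags, 2296 in 4 promoter peaks (percentile 99.8), followed by Tet2 with 1040 (percentile 91.6), Tet3 with 983, Dnmt3l with 957, Dnmt3b with 887, Uhrf1 with 846 and Dnmt1 with 774 (percentile 79.0). The 957 tags of Dnmt3l include 262 in a peak that also holds starts of Aire, and without it Dnmt3l had 695 tags, the fewest of the 7, and the median of the 7 genes was 887. A gene with more annotated starts can hold more promoter peaks in such a sum. Dnmt3a had 12 start clusters, against a median of 2 over all protein-coding genes, and the part of this number was not tested. After Dnmt3a, neighbours in this order were closer. The Poisson intervals of the single promoter peaks of Dnmt3b (830 to 947), Uhrf1 (790 to 905) and Dnmt1 (720 to 831) each overlapped the next, whereas that of Tet2 (978 to 1105) lay above all 3. By tags per kb the order was another, with Dnmt1 (207), Uhrf1 (168) and Tet2 (153) first. The highest fold enrichment at a promoter was at percentile 6.37 to 37.5 in 6 of the 7 genes and at 66.1 in Tet3.

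**Figure D3:**
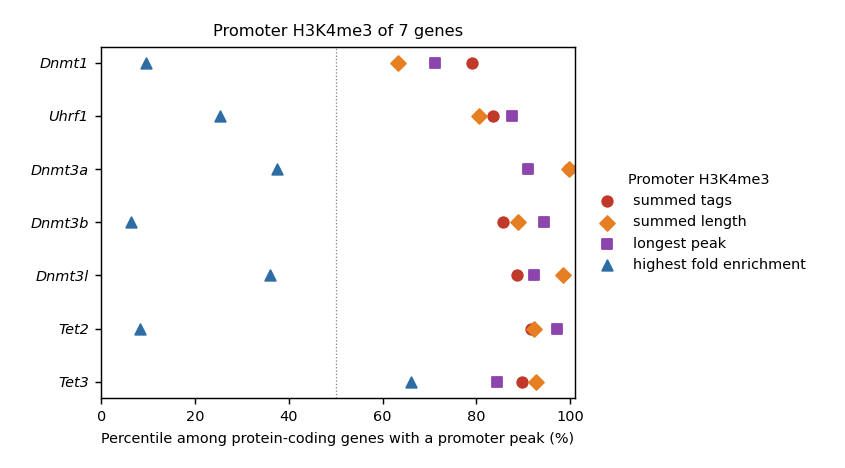
Percentile of each of the 7 genes with promoter H3K4me3 among the 15016 protein-coding genes that have it (x axis, %), for summed tags, summed length, the longest peak and the highest fold enrichment. Summed tags range from percentile 79.0 at Dnmt1 to 99.8 at Dnmt3a, and the blue triangles of fold enrichment lie left of the 50% line except at Tet3.

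The maintenance genes carried 1 promoter peak each. Dnmt1 (ENSMUSG00000004099.16, chr9:20907209-20959888, reverse strand) had 774 tags over 3745 bp at chr9:20950297-20954041, or 207 tags per kb, the densest of the 34 peaks. Its fold enrichment was 4.15 and its summit lay 16 bp upstream of an annotated start. A second, longer peak of 6957 bp began 73 bp further into the gene and had its summit in intron 1, with 740 tags and a fold enrichment of 4.32. Both peaks thus formed a nearly unbroken stretch from the start into the gene body, while a peak of 56 tags lay at coding exon 18. The most upstream annotated start of Dnmt1, at 20959888, had no peak, and the nearest one began 5847 bp downstream of it.

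The covered start of Dnmt1 at 20952623 is shown because the densest peak lies on it, with 33 CpG in the window of 250 bases before to 50 bases after the start (chr9:20952574-20952873, reverse strand, GRCm38.p6, RefSeq). CpG are in capitals.
Dnmt1 promoter: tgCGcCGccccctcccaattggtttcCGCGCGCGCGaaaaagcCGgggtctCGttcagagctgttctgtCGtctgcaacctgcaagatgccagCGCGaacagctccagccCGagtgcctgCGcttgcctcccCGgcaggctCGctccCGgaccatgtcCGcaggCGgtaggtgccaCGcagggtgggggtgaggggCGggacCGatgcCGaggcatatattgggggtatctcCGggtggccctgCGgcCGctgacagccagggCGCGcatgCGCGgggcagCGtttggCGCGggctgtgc
The window at the uncovered start of Dnmt1 held 2 CpG. At Uhrf1 (ENSMUSG00000001228.14, chr17:56303321-56323486, forward strand), 1 peak of 5043 bp with 846 tags and a fold enrichment of 5.20 spanned both clusters of coding starts, whose windows held 12 and 33 CpG. Of the 4 clusters of Uhrf1, the other 2 are those of noncoding transcripts and had no peak.

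Dnmt3a had the most H3K4me3 peaks of the 9 genes. In its body (ENSMUSG00000020661.15, chr12:3806007-3914443, forward strand) lay 4 promoter and 7 intragenic peaks, which covered 27.4% of 108.437 kb. The 7 intragenic peaks placed it at percentile 96.9 of protein-coding genes, which have a median of 0. The peak at the first starts of the gene had 655 tags over 4105 bp, a fold enrichment of 4.08 and 76.7 CpG per kb, the highest CpG density of the 34 peaks. The highest tag count lay deep in the gene. There, with summits 79292 and 86109 bp from the first start, 2 peaks of 5097 bp (568 tags, 522 to 617) and 5525 bp (862 tags, 805 to 922) followed each other with a gap of 624 bp. Their fold enrichments of 2.84 and 2.97 were at percentiles 0.292 and 0.567 of the list, although their tags were at percentiles 91.4 and 97.6.

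The longer of these peaks covered the starts at 3891728 and 3891744, from which the short isoform DNMT3A2, known as the main form in embryonic stem cells, is transcribed. The sequence at 3891744 is shown because of this internal start (chr12:3891494-3891793, forward strand, GRCm38.p6, RefSeq, CpG in capitals). It held 18 CpG, against 46 and 47 in the windows of the first starts.
Dnmt3a internal promoter: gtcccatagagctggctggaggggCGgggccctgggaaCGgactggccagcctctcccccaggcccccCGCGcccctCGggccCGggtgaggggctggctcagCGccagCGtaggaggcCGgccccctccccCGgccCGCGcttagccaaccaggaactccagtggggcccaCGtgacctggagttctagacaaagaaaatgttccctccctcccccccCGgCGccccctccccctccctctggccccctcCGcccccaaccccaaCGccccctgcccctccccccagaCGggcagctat
The remaining promoter peak of Dnmt3a, at a start in the last part of the gene, had 211 tags. Of the intragenic peaks, that in intron 4 was the largest, with 672 tags (622 to 725) over 4505 bp. The others had 48 to 263 tags, in introns 1 to 3 and in the untranslated part of exon 23. Peaks lay at 6 of the 12 start clusters, each with a coding transcript.

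Dnmt3b and Dnmt3c are related genes that follow each other on chromosome 2, and their H3K4me3 differed. Dnmt3b (ENSMUSG00000027478.15, chr2:153649450-153687730, forward strand) had a promoter peak of 6158 bp with 887 tags and a fold enrichment of 3.88, and a small peak of 31 tags in intron 2. The start of Dnmt3bos, an antisense transcript, lay in the same promoter peak, 669 bp from the nearest Dnmt3b start, and the lists carry no strand that could assign the mark to one of them. Dnmt3c (ENSMUSG00000082079.2, chr2:153696652-153729907, forward strand) had no peak at its only annotated start. Its upstream peak, of 657 bp with 40 tags (28.6 to 54.5), ended 1557 bp before that start, and its intragenic peak, of 894 bp with 39 tags (27.7 to 53.3), lay in intron 5. The tag intervals of both Dnmt3c peaks lay far below that of the Dnmt3b promoter. The upstream peak was steep, however, with a fold enrichment of 9.88 (percentile 88.1), the highest of the 34. A 150-bp stretch of the intragenic peak matched Dnmt3b at 84.0% identity, whereas no match in Dnmt3b was found for the upstream peak.

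Dnmt3l, the gene of the catalytically inactive stimulator (ENSMUSG00000000730.13, chr10:78041947-78063622, forward strand), was covered over the largest part of its length. Its 3 promoter peaks spanned 46.4% of the 21.676 kb body, against a median of 7.51% over all protein-coding genes. They had 262, 549 and 146 tags, and the middle one, of 5726 bp, contained the starts at 78049842 to 78049959. A peak of 202 tags lay upstream. Starts of Aire, the autoimmune regulator gene on the opposite strand, lay in the upstream peak and in the first promoter peak, 3687 and 1285 bp from the nearest Dnmt3l start. Without these 2 peaks, 549 and 146 tags remained at the promoters of Dnmt3l. All 3 of its start clusters had a peak, and their 300-base windows held only 6, 4 and 3 CpG. The peak counted at the first cluster, however, had its summit at 78043554, near the Aire start at 78043572 and 1267 bp from the nearest Dnmt3l start. It began 322 bp downstream of the first Dnmt3l start, so that it cannot be assigned to Dnmt3l alone. The window of the middle start is shown as an example of a covered start with few CpG (chr10:78049592-78049891, forward strand, GRCm38.p6, RefSeq, CpG in capitals).
Dnmt3l promoter: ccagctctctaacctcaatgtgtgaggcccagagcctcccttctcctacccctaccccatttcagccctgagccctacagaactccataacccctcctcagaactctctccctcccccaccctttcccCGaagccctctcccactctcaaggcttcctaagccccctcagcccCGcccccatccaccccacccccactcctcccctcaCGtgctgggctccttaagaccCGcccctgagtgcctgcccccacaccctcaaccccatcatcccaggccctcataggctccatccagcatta

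The 3 TET genes differed in where H3K4me3 lay. At Tet2 (ENSMUSG00000040943.12, chr3:133463679-133545139, reverse strand), the promoter peak of 6815 bp had 1040 tags, the highest count of the 34 peaks, at a fold enrichment of 4.06. Towards the gene body, 4 further peaks followed, with their summits in introns 1 and 2. They had 867 tags over 7129 bp, 364 over 3480 bp, 844 over 5252 bp and 254 over 2561 bp. The gaps between these 5 successive peaks were 2456, 2293, 3436 and 6872 bp, and the summit of the last lay 38738 bp from the first start. The peak of 844 tags had a fold enrichment of 2.63, at percentile 0.0801 of the list. A last peak of 31 tags lay in coding exon 3. Together the peaks covered 31.0% of the body, and the 5 intragenic peaks placed Tet2 at percentile 94.4. The start of Gm42567, an antisense transcript, lay 42 bp from a Tet2 start in the promoter peak.

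Tet3 (ENSMUSG00000034832.15, chr6:83362373-83459084, reverse strand) had 2 promoter peaks of unlike shape. The upstream one, at the start 83456392, was 4677 bp long with 577 tags and a fold enrichment of 4.61. The other, chr6:83440480-83442675, had 406 tags (367 to 447) in 2196 bp and a p-value score of 906.33, at percentile 96.3, the highest of the 34 peaks. Its summit lay 27 bp from an annotated start, and it contained 3 Tet3 starts as well as starts of B230319C09Rik, a noncoding transcript on the opposite strand, the nearest 77 bp away. Intragenic peaks lay in intron 3 (75 tags, fold enrichment 8.06) and at coding exon 12 (255 tags).

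Tet1 (ENSMUSG00000047146.17, chr10:62804570-62908996, reverse strand) had 7 start clusters, 6 of them with a coding transcript, and none had a promoter peak. Its only peak, chr10:62901182-62905354, was 4173 bp long and had 520 tags (476 to 567), at percentile 89.4 of the list. Its fold enrichment of 2.49 was the lowest of the 34 and at percentile 0.0217, and its p-value score of 72.32 was at percentile 13.7. The peak lay between annotated starts, 3642 bp downstream of the first one and 2064 bp upstream of the next. It was therefore called a promoter peak once the window was 2500 bp on both sides of a start, as was the upstream peak of Dnmt3c, and all 9 genes then had one.

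Over all 9 genes, 17 of 44 start clusters, in which starts within 500 bp of each other were joined, had an H3K4me3 peak. Among clusters of all protein-coding genes the share was 43%. Peaks lay at 17 of the 30 clusters with a coding transcript, close to the 54.1% of such clusters over all protein-coding genes. Of the 14 clusters with only noncoding transcripts, 0 had a peak, against 22.4% over all genes. The coding clusters without a peak included all 6 of Tet1. An ASH2L peak lay at 1 of the 44 clusters, against 3.55% over all protein-coding genes.

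Promoter sequence was compared through 300-base windows, 250 bases before to 50 bases after a RefSeq start. The 8 genes other than Dnmt3c had 15 such windows, and for Dnmt3c the GENCODE start was used. The median over 20150 windows of protein-coding genes was 14 CpG, with 20 at the 13356 windows whose start had an H3K4me3 peak and 3 at the 6794 without. Windows with 0 to 4 CpG had a peak in 14.1% of cases, those with 5 to 9 in 55.0% and those with 20 or more in 94.1%. Among the methylation genes, 8 of the 9 windows with 15 or more CpG had a peak, and the exception was Tet1. These windows are not independent, since those of the first Dnmt3a starts overlap each other and share a peak. Of the 4 windows with 0 to 4 CpG, both at Dnmt3l had a peak and those of Dnmt3c and the first Dnmt1 start had none.

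A further 4 windows are shown with CpG in capitals, namely those with the most and the fewest CpG, the uncovered window of Tet1 and the window of Tet3 at its ASH2L peak. Tet2 had 57 CpG and a peak (chr3:133544341-133544640, reverse strand), Tet3 had 22 CpG, an H3K4me3 peak and an ASH2L peak (chr6:83441629-83441928, reverse strand), Tet1 had 17 CpG and no peak (chr10:62887275-62887574, reverse strand) and Dnmt3c had 0 CpG and no peak (chr2:153696402-153696701, forward strand). All are from GRCm38.p6, the first 3 as RefSeq gives them.
Tet2 promoter: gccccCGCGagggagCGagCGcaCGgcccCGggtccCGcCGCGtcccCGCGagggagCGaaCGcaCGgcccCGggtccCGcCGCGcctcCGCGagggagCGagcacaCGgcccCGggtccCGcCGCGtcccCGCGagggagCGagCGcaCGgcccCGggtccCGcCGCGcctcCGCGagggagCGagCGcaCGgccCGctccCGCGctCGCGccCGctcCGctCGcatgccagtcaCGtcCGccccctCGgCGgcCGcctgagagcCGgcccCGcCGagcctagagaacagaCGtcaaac
Tet3 promoter: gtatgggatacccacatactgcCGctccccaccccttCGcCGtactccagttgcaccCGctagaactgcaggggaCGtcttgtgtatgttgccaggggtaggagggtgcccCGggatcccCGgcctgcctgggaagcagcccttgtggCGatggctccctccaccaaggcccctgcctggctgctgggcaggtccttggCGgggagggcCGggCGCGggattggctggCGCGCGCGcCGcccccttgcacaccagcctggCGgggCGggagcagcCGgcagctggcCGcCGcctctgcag
Tet1 promoter: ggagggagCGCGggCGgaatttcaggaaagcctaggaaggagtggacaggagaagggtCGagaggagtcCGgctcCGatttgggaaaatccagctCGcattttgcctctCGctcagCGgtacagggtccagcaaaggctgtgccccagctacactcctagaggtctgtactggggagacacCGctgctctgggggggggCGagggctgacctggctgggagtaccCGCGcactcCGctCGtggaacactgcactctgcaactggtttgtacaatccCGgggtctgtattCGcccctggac
Dnmt3c start: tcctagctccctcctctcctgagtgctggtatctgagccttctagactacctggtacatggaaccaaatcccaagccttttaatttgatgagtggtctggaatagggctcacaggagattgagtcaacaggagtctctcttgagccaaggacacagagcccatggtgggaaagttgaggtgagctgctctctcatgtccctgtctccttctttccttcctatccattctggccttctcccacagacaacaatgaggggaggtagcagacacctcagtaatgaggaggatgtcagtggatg
The Tet2 window stood at percentile 99.8 of all windows by CpG count. A GC box, searched as GGGCGG on both strands, a motif that itself contains a CpG, was found in every window of Uhrf1, Dnmt3a, Dnmt3b, Tet1, Tet2 and Tet3, in 2 of 3 windows of Dnmt3l, in 1 of 3 windows of Dnmt1 and not in that of Dnmt3c. It occurred in 47.8% of all windows, in 65.0% of those with an H3K4me3 peak and in 13.9% of those without. These letters are a description and not a site of binding.

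**Figure D4:**
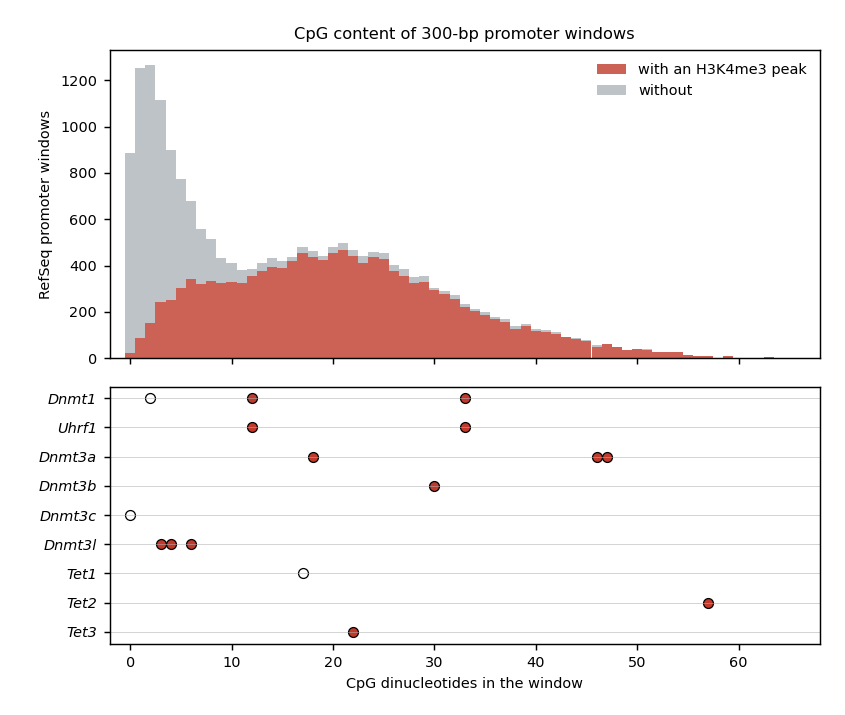
CpG dinucleotides in 300-base promoter windows. The upper panel counts RefSeq windows of protein-coding genes by number of CpG, in red with and in grey without an H3K4me3 peak (stacked). The lower panel shows each window of the 9 genes, filled with a peak and open without. Tet1 at 17 CpG is an open circle where most windows have a peak. The 3 Dnmt3l windows at 3 to 6 CpG are filled, that at 6 CpG by a peak that also holds starts of Aire.

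ASH2L peaks were found at 2 of the 9 genes, Tet3 and Dnmt3c, where 10.5% of protein-coding genes had one over the body or the 5000 bp upstream. The Tet3 peak was at a promoter, as were ASH2L peaks of 7.69% of protein-coding genes, and that of Dnmt3c was intragenic, as were those of 2.68%. Counts of 1 and 2 among 9 genes are too small to be set apart from these shares. At the other 7 genes, the nearest ASH2L peak lay between 17596 bp (Dnmt3b, where it is the peak in Dnmt3c) and 4593137 bp (Tet2) away from the gene and its upstream stretch. Wide H3K4me3 peaks, as at Tet2, Dnmt3a and Dnmt3b, were thus present without a called ASH2L peak. The absence of a call does not show the absence of ASH2L. Both called peaks rest on HA signal without a control library. The parental HA signal was not set against them, so that background of the HA antibody at these sites was not tested.

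The ASH2L peak of Tet3, chr6:83441337-83442125, had 36 tags (25.2 to 49.8), a fold enrichment of 4.43 and a p-value score of 56.77, at percentiles 60.7, 15.7 and 34.7 of the ASH2L list. Its summit was 17 bp from an annotated Tet3 start, in the sequence printed above for Tet3, and it held 60.8 CpG per kb. It lay inside the steep H3K4me3 peak, as 73.9% of ASH2L peaks overlapped an H3K4me3 peak. The wider H3K4me3 peak at the upstream Tet3 start had no ASH2L peak.

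In Dnmt3c the ASH2L peak, chr2:153705326-153706026, had 27 tags (17.8 to 39.3), a fold enrichment of 6.29 and a p-value score of 54.85. By tags and score it ranked low in the ASH2L list, at percentiles 32.8 and 27.0, and by fold enrichment higher, at 77.8. The summit was in intron 3, 8981 bp downstream of the start, and no H3K4me3 peak overlapped it. Dnmt3c also had no H3K4me3 peak at its promoter. Of the 2298 protein-coding genes with an ASH2L peak over the body or the 5000 bp upstream, 134 (5.83%) had no promoter H3K4me3, whether or not H3K4me3 overlapped the ASH2L peak. The tag intervals of the Tet3 and Dnmt3c peaks overlapped, so that their ASH2L tags could not be ordered beyond counting error. Outside repeats, the longest other match of the Dnmt3c peak in the genome was 124 bp at 75.0% identity, and none was in Dnmt3b.

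This ASH2L peak spans one of the regions to which the study directed dCas9 fusions. According to the study, its loci were picked among joint MLL1 and ASH2L targets and lacked H3K4me3 beforehand. An ASH2L peak without H3K4me3 at the gRNA sites was therefore given by that choice and is no separate result. The 3 gRNAs listed for it are shown because they place that experiment on the gene. One part of the methods speaks of a pool of 3 gRNAs, as listed, and another of more per region. Only those listed were matched here. The PAM, read from the genome, is in capitals.
gRNA2-1: tcctgtgaggtcctgcgaaaAGG
gRNA2-2: tgaggctaaggtaattcagcAGG
gRNA2-3: catctctgcgtatagaccacAGG
Each gRNA had 1 exact match in the genome. gRNA2-1 matched the reverse strand at chr2:153705359-153705378, with 12 of its bases in exon 3 of 19, and gRNA2-2 and gRNA2-3 matched the forward strand of the following intron at chr2:153705546-153705565 and chr2:153705637-153705656. Their distances to the ASH2L summit were 265, 78 and 13 bp. Within Dnmt3b, the best sites with a PAM differed from the gRNAs at 6, 8 and 8 bases. The stretch that holds all 3 sites is printed on the forward strand with the sites in capitals (chr2:153705359-153705658, GRCm38.p6), so that gRNA2-1 appears as its reverse complement.
Dnmt3c target region: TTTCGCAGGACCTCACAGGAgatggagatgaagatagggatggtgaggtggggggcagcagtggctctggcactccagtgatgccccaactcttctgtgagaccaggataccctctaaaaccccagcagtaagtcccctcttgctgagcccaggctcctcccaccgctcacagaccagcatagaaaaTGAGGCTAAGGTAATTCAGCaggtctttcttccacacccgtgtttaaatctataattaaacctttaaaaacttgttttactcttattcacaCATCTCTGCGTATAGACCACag
Exon 3 is a coding exon of 120 bp at 153705367 to 153705486. The nearest Dnmt3c H3K4me3 peaks were the upstream peak of 40 tags and that of 39 tags in intron 5, both described above.

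**Figure D5:**
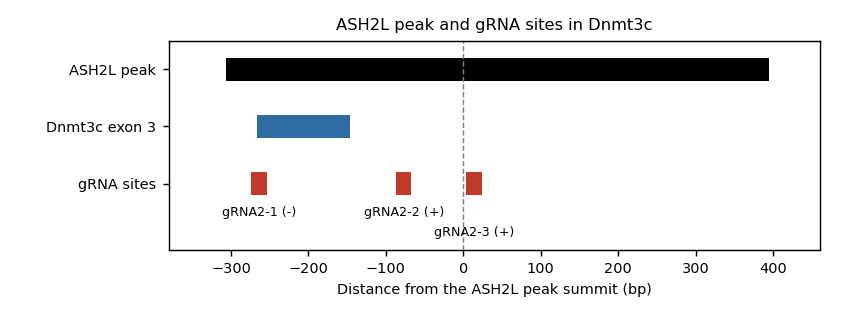
The ASH2L peak in Dnmt3c (black), exon 3 (blue) and the 3 gRNA sites (red, with their strand), by distance from the peak summit in bp. All 3 sites lie inside the peak, gRNA2-3 at 13 bp from the summit and gRNA2-1 at the edge of exon 3.

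Other genes of the pathway were described by counts. Of 24 genes for readers of methylation, partners of the enzymes, base excision and TET partners and the methyl donor S-adenosylmethionine, 23 had an H3K4me3 promoter peak, all but Zfp57, which maintains imprints. Over all protein-coding genes, 68.4% had one. The 23 genes comprised 8 of 8 readers, 6 of 7 partners, 6 of 6 genes of removal or TET partners and 3 of 3 methyl donor genes. A peak of 5000 bp or more lay at 10 of the 24, against 10.6% of all protein-coding genes. The median of summed promoter tags over the 23 genes was 625, against 498 over all genes with a promoter peak. The highest count was 2221, at Usp7, a deubiquitinase that binds UHRF1 and DNMT1, which was also the only one of the 24 with an ASH2L peak (27 tags, fold enrichment 5.02), where 10.5% of all protein-coding genes had one.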

How the data were processed

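CUT&RUN was carried out by the authors on 6 samples of E14 cells (duplicates of HA-ASH2L with anti-HA, HA-ASH2L with anti-H3K4me3, and parental cells). Per the labels, their processing used Bowtie2, SAMtools 1.5, bedtools, MACS 1.4 and HOMER 4.10 on mm10. The authors pooled the duplicates and called peaks without a control library. Per the file headers, this was MACS 1.4.3 with a p-value cutoff of 1e-05, a regional background of 10000 bp and at most 1 tag per position kept (redundant rate 0.31 for H3K4me3 and 0.03 for ASH2L), and the tag sizes were 142 and 151 bp. The study's methods set a fragment size limit below these tag sizes, so that it is open which reads the tag counts hold. Tag counts, as deposited, are whole, unnormalized numbers of tags in each peak. Fold enrichment, also deposited, is the ratio of tags at a summit to the authors' modelled background. The deposited p-value score is −log10 p multiplied by 10. The deposited length and summit give each peak's position, and the lists hold no columns of comparisons between groups. 

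Peaks were placed on GENCODE vM21 genes with 1 bp of overlap. The 9 genes and all gene lists were chosen with earlier results of these data known, so no list was tested. Named are the 9 genes, genes that start inside their peaks and the lists by counts. The rule for genes like Dnmt3c, which asked for an ASH2L peak and no H3K4me3 peak at all, could not be applied, since Dnmt3c has 2 H3K4me3 peaks outside its promoter. Genes from outside this rule were named after their values were seen (Usp7, Zfp57 and the cell type markers). Promoter windows came from RefSeq (GRCm38.p6), and all 15 matched the genome. The RefSeq table used here holds no window for Dnmt3c, so its start came from GENCODE. gRNA sequences, as given by the study, were searched on both strands, and copies of peaks with BLAST 2.17.0. Scripts ran under samtools 1.23.1 and Python 3.11.15 (matplotlib 3.10.9, pysam 0.24.0, scipy 1.17.1, pandas 2.3.3 and numpy 2.4.6). In a test on simulated data, 800 of 800 peaks placed at 200 genes were recovered in their class. Alternatives were other windows, midpoints, transcripts, thresholds, overlaps and start site clusters.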

Additional observations from a re-analysis of the deposited data

How the results depend on the processing

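For 14 results, 70 alternative values were computed, of which 42 stayed the same and 28 moved. A count was taken as moved beyond 1.5 times the reported one, a share of genes outside its Wilson interval, a number of tags outside its Poisson interval and the CpG ratio by more than 1 SD over the windows. In an alternative chosen after seeing the data, without promoter peaks that hold a start of another protein-coding gene, the summed tags of Dnmt3l were 695 and the median of the genes 887. With the midpoint of the peak in the window instead of an overlap, 3 of the 9 genes had promoter H3K4me3 instead of 7, 5 start clusters instead of 17, and the shares of all protein-coding genes were 37.2% for H3K4me3 and 5.49% for ASH2L. With peaks at or above the median fold enrichment, 1 gene and 1 start cluster had promoter H3K4me3, 6 of the 19 intragenic H3K4me3 peaks were left, 0 genes had promoter ASH2L and 1 had any, and the shares were 36.4% and 3.73%. With peaks at or above the median p-value score, 7 genes still had promoter H3K4me3, 5 intragenic H3K4me3 peaks were left, promoter, intragenic and any ASH2L fell to 0 genes, and the shares were 61.6% and 4.81%. With RefSeq transcripts, which leave out Dnmt3c, intragenic ASH2L was 0 and any ASH2L 1, and the shares were 67.4% and 7.3%. A window of 2500 bp on both sides gave shares of 71.9% and 8.63%, and coding transcripts alone a share of 67.2% for H3K4me3. A reach of 10000 bp gave 5 upstream H3K4me3 peaks instead of 2. Of the first 3 genes by summed promoter tags, 1 was among the first 3 by tags per kb. The median observed/expected CpG was 0.54, and 0.57 with 500 bp on both sides.

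No paired analysis was possible because the lists merge the duplicates, and for the same reason no replicate could be left out. Peak calls rest on 1 pooled library per target, and both ASH2L peaks lie close to the threshold of the peak caller, with 27 and 36 tags.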
